A study of Mus musculus with 8 samples.

Results

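Genes of sympathetic neurons, adrenal chromaffin cells, Schwann cells and the adrenal cortex were followed in whole embryonic mouse kidneys. The set holds 34 genes, chosen with earlier results of these data known, and probes were assigned to them by matching their accessions to RefSeq symbols. All 34 had a probe, of 20887 named genes on the array, and 24 of them were bright enough to be tested among 13974 genes. The kidneys were taken at embryonic day 16.5 from C57BL/6 mice. The 4 wildtype samples (WT1 to WT4, genotype "control") and the 4 knockout samples (KO1 to KO4, genotype "DOT1-null") were each one pair of kidneys. In the knockout, Dot1, read here as the histone H3 lysine 79 methyltransferase gene Dot1l, was deleted conditionally in nephron progenitor cells that express Six2, so stroma, vessels, nerves and ureteric bud keep the gene. Which Cre line was used, and whether the wildtype embryos carried it, is not given in the sources used here. Every array held the sample in the red channel (Cy5) against RNA of WT1 in the green channel (Cy3). Both channels of the WT1 array thus held WT1 RNA. A level below is the log2 ratio of red over green. The number of arrays limits the precision.

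Sympathetic neurons, chromaffin cells and Schwann cells all derive from the neural crest. Sympathetic axons enter the kidney along its arteries during development, and their cell bodies stay in ganglia outside the organ. The adrenal gland lies on the upper pole of the kidney, with chromaffin cells in its medulla, which make catecholamines, and steroid-producing cells in its cortex, which arise from the mesoderm beside the gonad. RNA of these genes in a kidney sample can thus come from axon-associated cells, from adjoining tissue or from kidney cells that use the gene. In bulk RNA, fewer cells of a type and less RNA per cell cannot be told apart.

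Several libraries stood apart. The median red signal of the negative-control spots was 58 to 61 scanner units on 6 arrays, but 1361 on WT1 and 478 on KO1, so these arrays measured dim genes poorly. Results are therefore also given without WT1 and KO1. Ddx3y, a Y-linked gene, was high on all KO arrays and on WT2 (log2 ratios of 2.31 to 3.30) and near 0 on WT1, WT3 and WT4 (-0.11 to 0.08), so sex was not balanced between the groups. All WT arrays lay in one row of the slide and all KO arrays in the other, and row and genotype cannot be told apart. The Dot1l probe lay between -0.23 and -0.09 in WT and between -0.21 and -0.04 in KO (difference 0.03 ± 0.08, SE). Its position relative to the deleted part was not analysed here, so it does not check the labels. All 12 listed kidney markers, among them the podocyte gene Nphs1 and the collecting duct gene Aqp2, passed the brightness filter. Of these, Lhx1, a transcription factor of the early nephron, fell by 0.86 ± 0.15 (limma adjusted p = 0.0145), and Umod, a gene of the loop of Henle, differed by 0.75 ± 0.20 (adjusted p = 0.0889; 0.0283 with the replicate block). The part of kidney cell makeup in the differences below was not tested. Of 10 gonad genes with a probe, 7 were not well above background on any of the 6 arrays. The 2 tested were Foxl2 (difference 0.03 ± 0.17) and Dhh (-0.03 ± 0.12), and neither passed. Foxl2 was bright, with a mean log2 intensity over both channels of 12.7, against a median of 9.61 over all tested genes. Which cells gave its signal was not tested.

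Of the 24 tested genes, 4 passed an adjusted p of 0.05 (limma, Benjamini-Hochberg adjustment over all genes tested). Elavl4, Tph1 and Pnmt fell in KO and Phox2a rose. This is 16.7% of the tested genes, where 2.11% of all 13974 genes passed (295 genes, or 555 with the replicate number as a block). Since the genes were chosen with results known, this share is a description. By direction, 1 rose, against 1.57% of all genes, and 3 fell, against 0.544%. The median difference over the 24 genes was 0.02, with 14 above 0 and 10 below, against a median of 0.03 over all genes. The remaining 20 genes differed by -0.28 to 0.43 with adjusted p values of 0.202 or higher, and 14 of them differed by less than 0.1 in either direction. The same 4 genes passed without WT1 and KO1, and none passed when arrays were centred on their median without loess, or when only the red signals of all 8 arrays were compared. The plot of log2 ratios by sample shows the 4 genes beside the other 20.

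**Figure D1:**
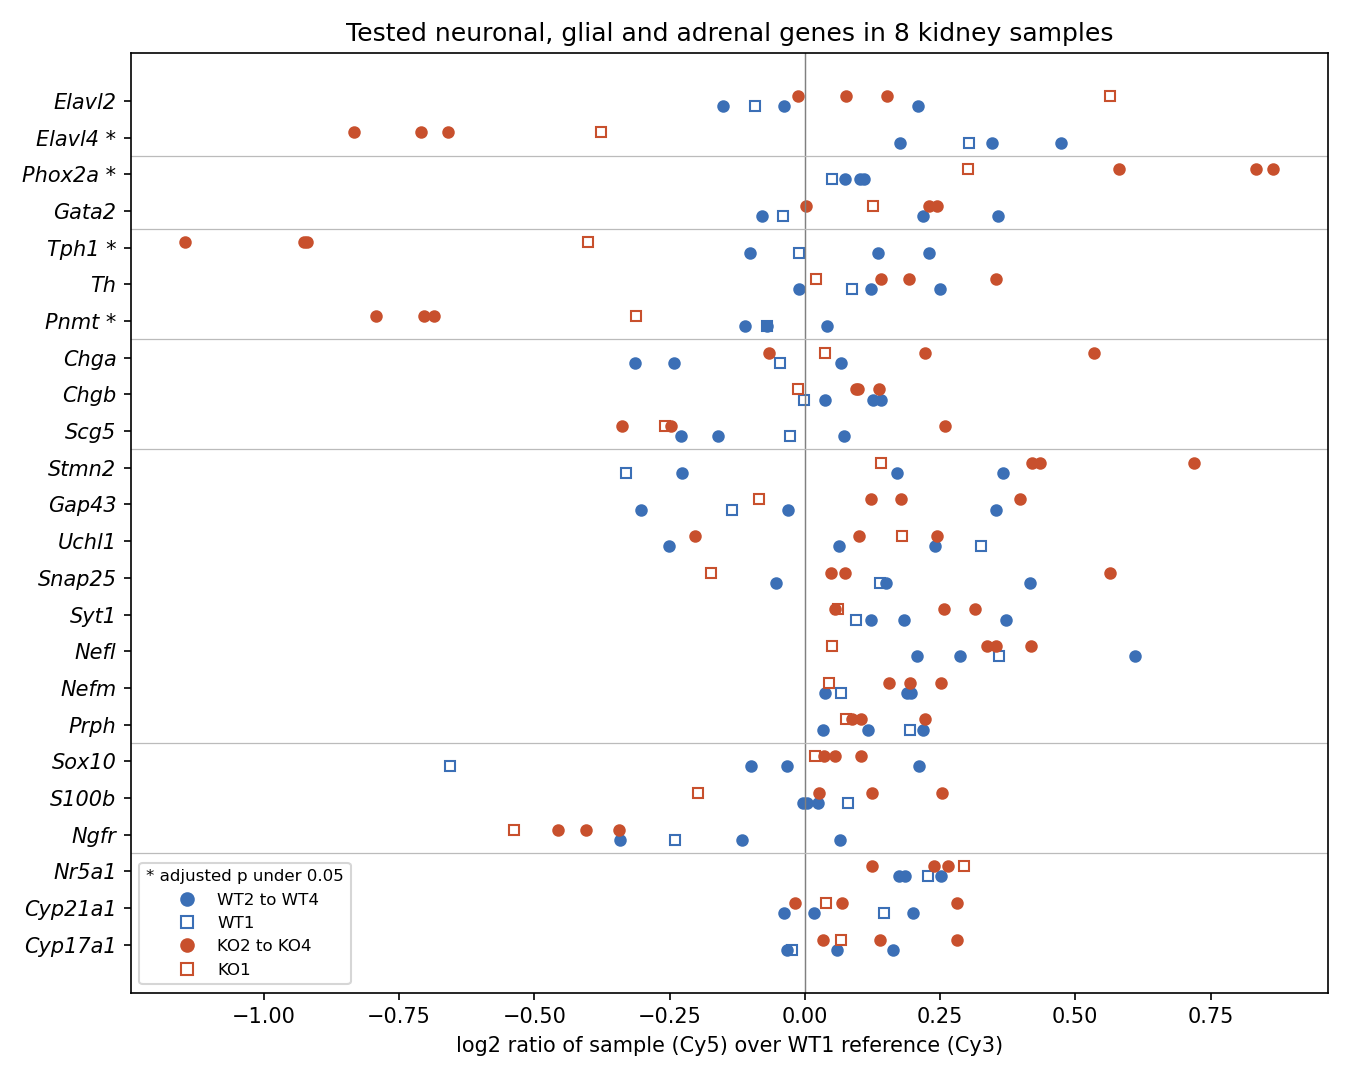
Log2 ratio of each sample (Cy5) over the WT1 reference (Cy3) for the 24 tested genes, ordered by role. Blue points are WT, orange points are KO, open squares are the arrays WT1 and KO1, and asterisks mark the 4 genes that passed. In Elavl4, Tph1 and Pnmt all KO points lie left of all WT points, and in Phox2a all lie right of them.

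Start regions of 3 of these genes are shown from the RefSeq promoter table (build GRCm38.p6), as the sequences next to genes that differed between the groups. Each run is the 250 bases before an annotated start, 5′ to 3′ on the gene's strand. Capitals mark matches on either strand to CANNTG (E-box), CCAAT and GGGCGG (GC box). Elavl4 is shown at chr4:110287528-110287777 (minus strand, one of 4 starts in the table), Tph1 at chr7:46667378-46667627 (minus strand, one of 2) and Phox2a at chr7:101818063-101818312 (plus strand).
Elavl4: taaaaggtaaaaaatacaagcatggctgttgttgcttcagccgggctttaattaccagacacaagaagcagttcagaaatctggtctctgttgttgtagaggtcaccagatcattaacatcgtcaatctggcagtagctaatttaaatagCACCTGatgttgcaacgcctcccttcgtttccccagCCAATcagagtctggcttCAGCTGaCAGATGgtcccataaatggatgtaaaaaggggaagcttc
Tph1: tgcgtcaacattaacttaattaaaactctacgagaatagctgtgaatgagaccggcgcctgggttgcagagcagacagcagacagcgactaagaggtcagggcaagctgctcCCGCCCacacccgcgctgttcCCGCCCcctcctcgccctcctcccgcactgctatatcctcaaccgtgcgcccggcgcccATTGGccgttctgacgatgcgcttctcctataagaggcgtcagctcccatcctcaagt
Phox2a: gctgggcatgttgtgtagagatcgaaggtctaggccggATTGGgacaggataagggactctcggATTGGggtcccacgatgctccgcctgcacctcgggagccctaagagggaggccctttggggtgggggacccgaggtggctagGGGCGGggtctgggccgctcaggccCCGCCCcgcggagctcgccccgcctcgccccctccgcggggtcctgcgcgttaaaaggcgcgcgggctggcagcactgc
These Elavl4 and Tph1 starts were chosen because they hold matches, and the first listed start of either gene holds none. Which start was used in these kidneys was not measured. The Elavl4 run holds 3 E-boxes, at -100, -46 and -39 from the start, and one CCAAT. The Tph1 run holds a pair of GC boxes and an inverted CCAAT at -58. The Phox2a run, 70.4% G and C, holds one GC box on each strand and inverted CCAAT at -212 and -186. Among the 32851 windows of this length in the table, 66.2% hold CANNTG, 33.8% CCAAT and 32.7% GGGCGG, so none of these is rare. The runs hold no match to TGACGTCA (the cyclic AMP response element), TCAGCACC or GGACAGC (the left and right parts of the element bound by the neuronal repressor REST), CAAGGTCA (bound by the steroidogenic factor Nr5a1), TATAAA or AGATAA. The 22 genes of the set with a promoter in the table have 34 windows. TGACGTCA occurs in 3 of these windows, those of Chgb, Scg2 and Th, against 1.55% of all windows. TCAGCACC occurs in 1 of the 34, of Tubb3 (1.32% of all windows), and GGACAGC in 1, of Scg2 (5.28%). A match is a description of the letters only.

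The ELAV proteins of neurons (Hu proteins) bind AU-rich and U-rich stretches of messenger RNA and stabilise transcripts during neuronal differentiation. Elavl4, on chromosome 4, encodes HuD. Its log2 ratios were 0.30, 0.35, 0.18 and 0.47 in WT1 to WT4 and -0.38, -0.66, -0.83 and -0.71 in KO1 to KO4. Every KO sample lay below every WT sample, and KO1 was the closest of them to WT. Elavl4 fell by 0.97 ± 0.11 (SE, n = 4 per group; 1.96-fold lower, limma adjusted p = 0.00157). The red signal was 318, 304 and 463 units in WT2 to WT4 and 168, 113 and 174.5 units in KO2 to KO4, above the negative controls in both groups. The green signal of the shared reference was 108 to 123 units on these 6 arrays.

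A second Elavl4 probe was also without overlap of the groups, from -0.13 to 0.16 in WT and from -0.34 to -0.21 in KO. Its difference was -0.30 ± 0.09 (adjusted p = 0.126 when every probe was tested), and the mean of both probes differed by -0.64 (adjusted p = 0.00558). Of the other neuronal ELAV genes, Elavl2 was well above background on 4 of 8 arrays, with log2 ratios of -0.09, -0.15, -0.04 and 0.21 in WT and 0.56, 0.15, 0.08 and -0.01 in KO. The groups overlapped, KO1 alone lay far from the others, and the difference of 0.21 ± 0.13 did not pass (adjusted p = 0.49). It was 0.09 without KO1. Elavl3 was not tested. It was well above background only on WT1 (14020 units) and KO1 (1033 units), and read 61.5 to 74 units on the 6 arrays with low negative controls.

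Among the transcription factors, Phox2a, a homeodomain protein that specifies noradrenergic neurons, lies on chromosome 7. Its log2 ratios were 0.05, 0.08, 0.10 and 0.11 in WT1 to WT4 and 0.30, 0.87, 0.58 and 0.83 in KO1 to KO4. The WT samples were almost level, and every KO sample lay above them. Phox2a rose by 0.56 ± 0.12 (1.48-fold, limma adjusted p = 0.0301). Its red signal was 82, 94 and 96.5 units in WT2 to WT4 and 188.5, 133 and 231 units in KO2 to KO4. WT2 and KO1 were not flagged as clearly brighter than their background. The call rested on most samples: the adjusted p was 0.0771 without WT2, 0.08 without WT1, 0.06 without WT3, 0.0759 without WT4, 0.086 without KO2 and 0.122 without KO4, with differences of 0.49 to 0.68 when 1 sample was left out. With the scanner software's own ratios the difference was 1.35 (adjusted p = 0.227).

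Gata2, a zinc finger factor of lineages that include chromaffin and blood cells, was well above background on all 8 arrays. Its red signal was 1137 to 2040 units in WT2 to WT4 and 898 to 1746 units in KO2 to KO4. Which cells gave this signal was not tested. Gata2 had ratios of -0.04, -0.08, 0.22 and 0.36 in WT and of 0.13, 0.0026, 0.24 and 0.23 in KO. The groups overlapped throughout, and the difference was 0.04 ± 0.11 (adjusted p = 0.933; 95% interval -0.20 to 0.28). Hand2 and Isl1, which act with Phox2a in sympathetic neuroblasts, were not well above background on any array. The plot of red signal shows the dim range in which the 4 genes that passed were measured.

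**Figure D2:**
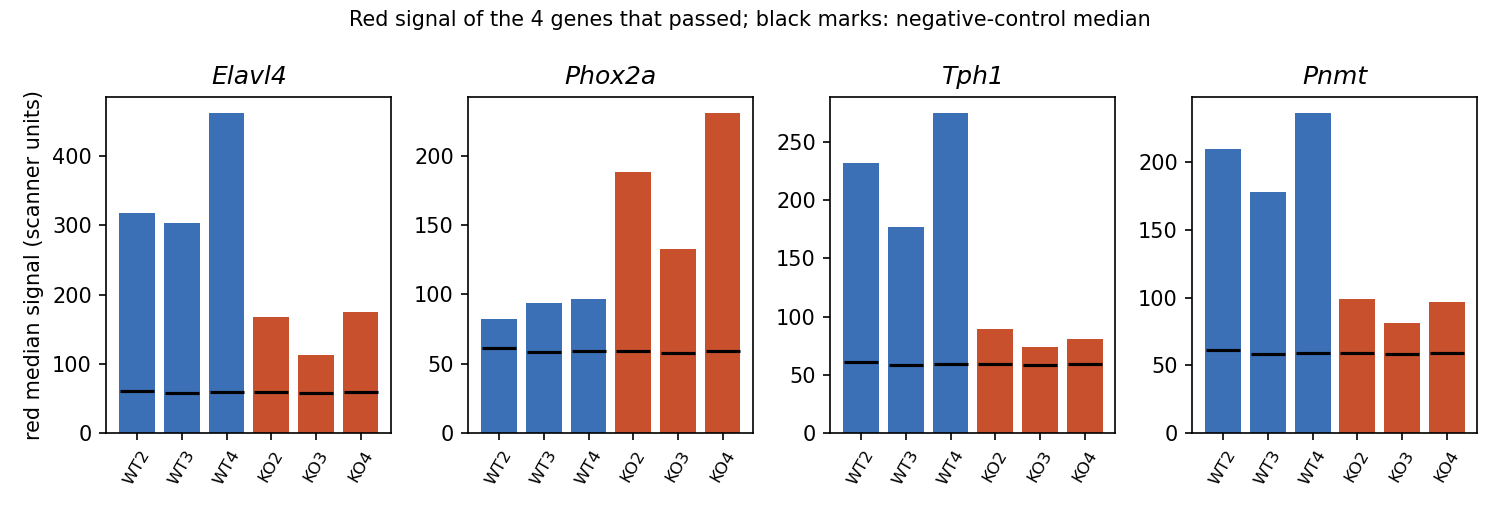
Median red (Cy5) spot signal in scanner units, without normalization, for the 4 genes that passed on the 6 arrays with low negative controls (WT blue, KO orange). Black marks give each array's negative-control median of 58 to 61 units. Tph1 and Pnmt in KO come close to the marks.

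Of the enzymes of monoamine synthesis, the 2 genes that fell serve different products. Tph1, on chromosome 7, encodes the tryptophan hydroxylase of non-neuronal tissues, the rate-limiting enzyme of serotonin synthesis. Its log2 ratios were -0.01, 0.14, -0.10 and 0.23 in WT1 to WT4 and -0.40, -0.92, -0.93 and -1.15 in KO1 to KO4. No KO sample reached the WT range. Tph1 fell by 0.91 ± 0.14 (1.88-fold lower, limma adjusted p = 0.0079). The red signal was 232, 176.5 and 275 units in WT2 to WT4 and 89, 74 and 81 units in KO2 to KO4, and only KO2 and KO4 were well above background among the KO arrays. The sizes differed between ratios: the scanner software's gave -2.26 for Tph1 (adjusted p = 0.0358) and -1.93 for Elavl4 (adjusted p = 0.0127).

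Pnmt, on chromosome 11, encodes phenylethanolamine N-methyltransferase, which converts noradrenaline to adrenaline and defines adrenergic chromaffin cells. Its log2 ratios were -0.07, 0.04, -0.11 and -0.07 in WT1 to WT4 and -0.31, -0.69, -0.70 and -0.79 in KO1 to KO4. The groups did not overlap, and KO1 again lay nearest to WT. Pnmt fell by 0.57 ± 0.11 (1.49-fold lower, limma adjusted p = 0.0184). The adjusted p was 0.0547 without WT2, 0.0513 without WT4, 0.0568 without KO2, 0.0744 without KO4 and 0.0844 with the software's ratios, where the difference was -1.56.

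The enzymes that precede Pnmt in catecholamine synthesis did not pass. Th, tyrosine hydroxylase, the rate-limiting step, lay between -0.01 and 0.25 in WT and between 0.02 and 0.35 in KO, a difference of 0.06 ± 0.10 (95% interval -0.14 to 0.27), and 0.41 ± 0.25 with the software's ratios (adjusted p = 0.526). Its red signal was 73 to 109.5 units in WT2 to WT4 and 94.5 to 137 units in KO2 to KO4. Dbh, dopamine beta-hydroxylase, which defines noradrenergic cells, was not well above background on any array, with 65.5 to 78 units. Whether chromaffin or sympathetic cells had a part in the differences of Pnmt and Phox2a was not tested. With a term for sex, which sets KO against the single WT2 array, the 4 genes that passed kept their direction (Elavl4 -0.99, Phox2a 0.57, Tph1 -0.98, Pnmt -0.67), but none passed (adjusted p of 0.0833, 0.306, 0.158 and 0.198).

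Secretory granule proteins are stored with the amines of chromaffin cells and neurons. Chga, chromogranin A, was well above background on all 8 arrays, with ratios of -0.04, -0.31, -0.24 and 0.07 in WT and of 0.04, 0.53, -0.07 and 0.22 in KO. The groups overlapped, the KO samples ranged from -0.07 to 0.53, and the difference of 0.32 ± 0.13 did not pass (limma adjusted p = 0.292). Chgb, chromogranin B, lay between -0.0017 and 0.14 in WT and between -0.01 and 0.14 in KO. It was dim, with red signals above the negative controls of 25.9 to 44.1 units in WT2 to WT4 and 27.1 to 36.4 units in KO2 to KO4. The background correction shrinks the ratios of dim genes, so these values may understate a change. With the software's ratios Chgb differed by 0.14 ± 0.249 (limma adjusted p = 0.851). Scg5, a chaperone of the prohormone convertase Pcsk2, had ratios of -0.03, -0.16, 0.07 and -0.23 in WT and of -0.26, -0.34, 0.26 and -0.25 in KO. KO3 alone was high, and the difference was -0.06 ± 0.13 (adjusted p = 0.895). Scg2, secretogranin II, was not well above background on any array.

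Of 9 genes of the neuronal cytoskeleton, growth cone and synapse, 8 were tested, and none passed. Stmn2, a microtubule regulator of growing axons, had ratios of -0.33, -0.23, 0.37 and 0.17 in WT and of 0.14, 0.44, 0.72 and 0.42 in KO. The values of WT3 and WT4 reached into the KO range, and the difference was 0.43 ± 0.16 (adjusted p = 0.215). With the replicate number as a block it passed (adjusted p = 0.0281), but not in the same fit without WT1 and KO1 (difference 0.42, adjusted p = 0.0675), nor with the software's ratios (1.19, adjusted p = 0.154). Gap43, the growth-associated protein of axon tips, had ratios of -0.14, -0.30, 0.35 and -0.03 in WT and of -0.08, 0.12, 0.40 and 0.18 in KO, a difference of 0.18 ± 0.14 (adjusted p = 0.621). WT3 and KO3 were the highest of their groups in both genes.

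The other 6 of these genes differed by less than 0.1. They were the neurofilament genes Nefl (-0.08) and Nefm (0.04), the peripheral intermediate filament gene Prph (-0.02), the ubiquitin hydrolase gene Uchl1 (-0.01), and Snap25 (-0.03) and Syt1 (-0.02), which serve vesicle fusion. Their 95% intervals are drawn in the plot of differences by role, and that of Snap25, from -0.35 to 0.29, was the widest of the 6. With the software's ratios Nefl was at 0.08, Nefm at 0.24 and Snap25 at -0.21, and none of the 3 passed. On the 6 arrays with low negative controls, Prph read 18.5 to 31.5 units in red above these controls, Nefm 34.5 to 62.8 and Syt1 30 to 82. Since the background correction shrinks the ratios of dim genes, the small differences of Prph, Nefm and Syt1 may understate a change. Tubb3, the neuronal beta-tubulin, was well above background on KO4 alone, with 104 units against 65 to 84 units on the other arrays with low negative controls, and was not tested.

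**Figure D3:**
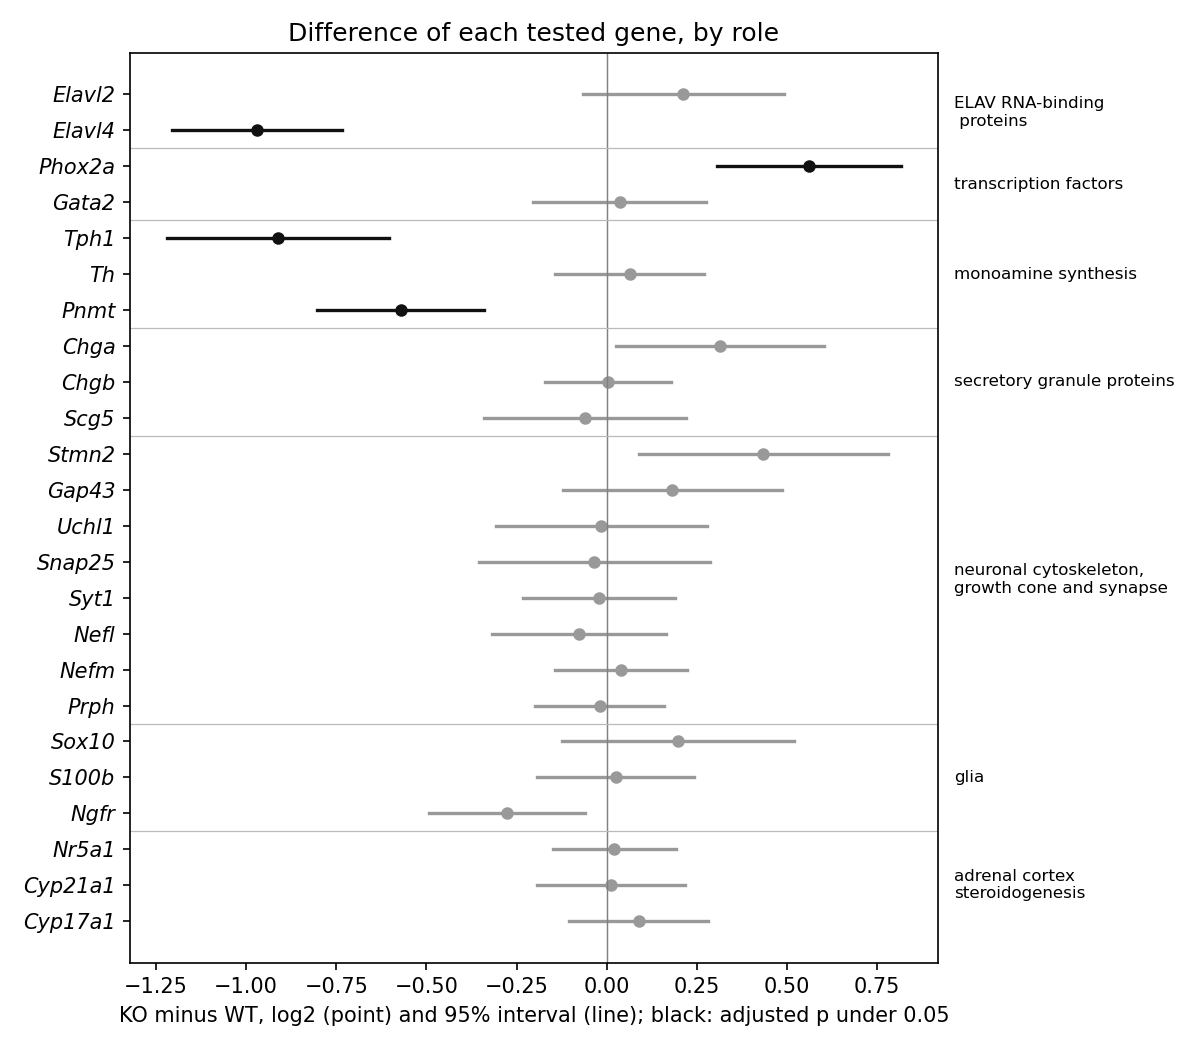
Difference of KO minus WT in log2 ratio (points) with its 95% interval from limma (lines) for the 24 tested genes, grouped by role. Black marks the 4 genes that passed an adjusted p of 0.05, which all fall among the ELAV genes, the transcription factors and the enzymes of monoamine synthesis. The intervals of the 3 tested adrenal cortex genes all cross 0.

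The genes listed as glial were Ngfr, Sox10 and S100b. Ngfr encodes the low-affinity neurotrophin receptor p75, Sox10 a transcription factor of neural crest and Schwann cells, and S100b a calcium-binding protein of glia. The mean red signal above the negative controls in WT2 to WT4 was 4028 units for Ngfr, 46 for Sox10 and 28 for S100b. Which cells gave the Ngfr signal was not tested. Ngfr was well above background on all 8 arrays, with red signals of 3004 to 5876 units in WT2 to WT4 and 1984 to 3532 units in KO2 to KO4. Its ratios were -0.24, -0.34, -0.12 and 0.06 in WT1 to WT4 and -0.54, -0.46, -0.34 and -0.41 in KO1 to KO4. The groups did not overlap by a narrow margin, between WT2 and KO3. Non-overlapping groups occurred in 9.25% of all genes, and the difference of -0.28 ± 0.10 did not pass (adjusted p = 0.202). Sox10 had ratios of -0.66, -0.10, -0.03 and 0.21 in WT and of 0.02, 0.10, 0.04 and 0.06 in KO, with WT1 far below the rest. Its difference was 0.20 ± 0.15 (adjusted p = 0.607), and 0.03 without WT1. S100b differed by 0.02 ± 0.10, and by 1.04 ± 0.50 with the software's ratios (adjusted p = 0.412).

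Of the adrenal cortex genes, 4 of 7 were too dim to be tested. They were Star, which carries cholesterol into the mitochondrion, Cyp11a1, which makes pregnenolone, Cyp11b1, which makes corticosterone, and Hsd3b1. On the 6 arrays with low negative controls their probes read 54.5 to 81.5 units and none was well above background. One Star probe was flagged above it on WT1 (4715 units) and KO1 (994 units). Hsd3b1 belongs to a family of near-identical genes, and so its probe may read other members. None of the 3 tested genes passed. On the 6 arrays with low negative controls, Nr5a1 read 54.5 to 96.5 units in red above these controls. Cyp17a1 read 43 to 66 units and Cyp21a1 17 to 52.5 units above them. The background correction shrinks the ratios of dim genes, so the small differences of these 3 may understate a change. With the software's ratios the differences were 0.097 ± 0.12 for Nr5a1, 0.185 ± 0.146 for Cyp17a1 and -0.089 ± 0.224 for Cyp21a1. None passed there either. Nr5a1, the master regulator of steroid-producing cells, had ratios of 0.23, 0.18, 0.17 and 0.25 in WT and of 0.30, 0.12, 0.26 and 0.24 in KO (difference 0.02 ± 0.08, adjusted p = 0.946). Cyp17a1, which makes androgen precursors, had ratios of -0.02, -0.03, 0.16 and 0.06 in WT and of 0.07, 0.03, 0.28 and 0.14 in KO (0.09 ± 0.09, adjusted p = 0.721). Cyp21a1, which serves corticosteroid synthesis, differed by 0.01. The summed red signal of the 7 genes above the negative controls was 112 to 164.5 units in WT2 to WT4 and 129 to 164 units in KO2 to KO4, so the ranges overlapped.

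Further genes of the same cell types were then read from the same fit. Of 9 tested genes of sympathetic and chromaffin cells, 2 rose and 1 fell, where 1.57% of all genes rose and 0.544% fell. Slc18a1, the vesicular monoamine transporter of chromaffin cells, lay between -0.83 and -0.12 in WT and between -0.11 and 0.81 in KO, and rose by 0.81 ± 0.19 (limma adjusted p = 0.0485). Ddc, the decarboxylase that makes both dopamine and serotonin and that proximal tubule cells also express, had ratios of -0.21 to 0.09 in WT and 0.40 to 0.59 in KO, and rose by 0.59 ± 0.09 (adjusted p = 0.00762). Pcsk2, the prohormone convertase served by Scg5, lay between -0.19 and 0.32 in WT and between -0.66 and -0.43 in KO, and fell by 0.62 ± 0.11 (adjusted p = 0.0165). Npy, a peptide of sympathetic neurons, differed by 0.61 ± 0.15 (adjusted p = 0.0585), and it passed with the replicate block (adjusted p = 0.0101).

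Of 7 tested genes of serotonin synthesis, uptake, breakdown and reception other than Tph1, Ddc alone rose (1.57% of all genes did), and the list median was 0.14. Maob, a monoamine oxidase, differed by 0.40 ± 0.10 (adjusted p = 0.054; 0.0368 with the replicate block), and the serotonin transporter gene Slc6a4 by -0.11 ± 0.09. Of 10 tested Schwann and satellite glia genes, 3 rose and none fell, against 1.57% and 0.544% of all genes: Fabp7, a fatty acid-binding protein of glia (0.60 ± 0.11, adjusted p = 0.0192), Pou3f1, a transcription factor of promyelinating Schwann cells (0.50 ± 0.10, adjusted p = 0.0253), and Ptprz1, a receptor tyrosine phosphatase (0.45 ± 0.10, adjusted p = 0.0463). Without WT1 and KO1, Pou3f1 did not pass (0.45, adjusted p = 0.104), and with a sex term none of the 6 genes called in these lists did. With the software's ratios Slc18a1 (1.03, adjusted p = 0.124) and Pou3f1 (0.998, adjusted p = 0.156) did not pass. The list median was 0.08. The myelin gene Mbp differed by 0.04 ± 0.10. Of 20 other pan-neuronal genes none passed, with 7 at an unadjusted p under 0.05, where 14.5% of all genes were, and a median of 0.05. With the replicate block 1 passed, Celf4 (0.47, adjusted p = 0.0457), but not in the same fit without WT1 and KO1 (0.43, adjusted p = 0.123), and it was 0.14 with a sex term.

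Of 9 other adrenal cortex genes none passed, with 4 at an unadjusted p under 0.05 (14.5% of all genes). Akr1b7, an aldo-keto reductase listed with the cortex, differed by -0.51 ± 0.13 (adjusted p = 0.0614), and fell by 0.66 without WT1 and KO1 (adjusted p = 0.0306). Its mean log2 intensity was 10.94, where Star, Cyp11a1, Cyp11b1 and Hsd3b1 were too dim to be tested. Which cells gave the Akr1b7 signal was not tested. On the 6 arrays with low negative controls, the summed red signal above the negative controls for the sympathetic and chromaffin list was 3244 to 5097 units in WT and 2762 to 5059 units in KO. That of the pan-neuronal list was 16030 to 22290 units in WT and 11640 to 19660 units in KO, and that of the Schwann and satellite glia list was 4248 to 6097 and 3118 to 5815 units. These sums are not normalized between arrays, and bright genes weigh most in them. In the pan-neuronal list Ncam1 had a mean log2 intensity of 12.96, where the tested genes of the list had a median of 8.09. The sums can thus miss a change in the dim genes. In each of these lists the ranges of WT and KO overlapped, and their part in the differences of single genes was not tested.

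**Figure D4:**
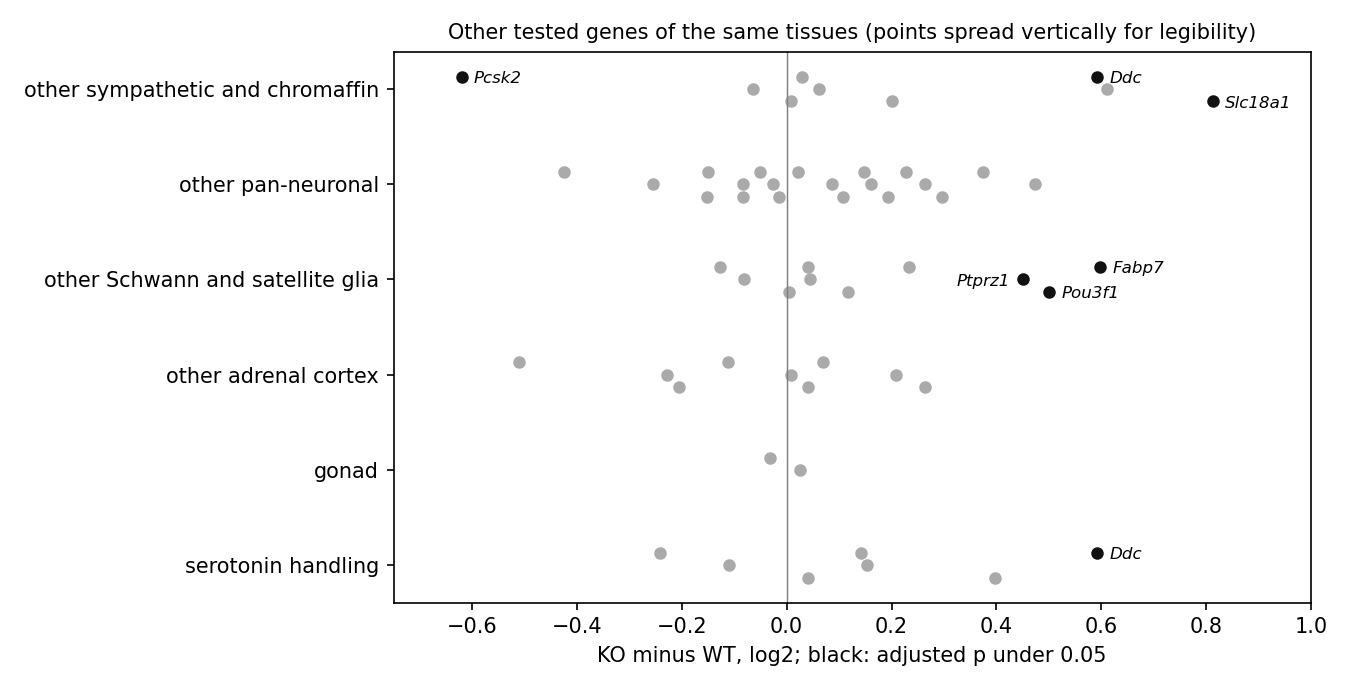
Difference of KO minus WT in log2 ratio for the other tested genes of sympathetic, neuronal, glial, adrenal cortex, gonad and serotonin-handling lists, 1 point per gene. Black marks genes that passed an adjusted p of 0.05, and Ddc stands in a pair of lists. Called genes lie in the sympathetic and chromaffin list and the Schwann and satellite glia list, and in the serotonin list through Ddc.

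The 4 genes that passed did not lie together on the chromosomes, and their neighbours were read by gene order in GRCm38.p6, used for order only because the array headers name mm9. The 3 tested genes on either side of Elavl4 differed by -0.09 to 0.09. Those beside Tph1 differed by -0.12 to 0.21, and those beside Phox2a by -0.03 to 0.32. Next to Pnmt, Tcap, which encodes the sarcomere protein telethonin, lay between -0.22 and 0.25 in WT and had ratios of -0.19, -0.81, -0.94 and -0.96 in KO1 to KO4. It fell by 0.83 ± 0.16 (limma adjusted p = 0.0237), with KO1 inside the WT range, while Pgap3 on the other side of Pnmt differed by 0.02 and Erbb2 by -0.07. Tcap was named after its value was seen.

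Across arrays, the median log2 ratio of the 24 tested genes was 0.02, 0.04, 0.05 and 0.18 in WT1 to WT4 and 0.04, 0.11, 0.17 and 0.12 in KO1 to KO4. WT4 was the highest WT array in 15 of the 24 genes, and KO1 the lowest KO array in 12. The pattern of all 18 tested genes of neurons and chromaffin cells, taken as the mean of their standardised ratios, was most like that of Dip2b (Pearson r = 0.95 over 8 arrays), Tnxb (0.94), Tpst2 (0.92), Tafa5 (0.91) and Bet1l (0.90). These 5 differed by -0.04 to 0.07 between the groups. The points share the WT1 reference and the slide, and the likeness is a description.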

How the data were processed

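Expression was measured on 8 two-colour Agilent arrays on 1 slide, with the sample in Cy5 and WT1 RNA in Cy3 on every array and no dye swap, per the labels. Feature Extraction (Agilent, version 10.7.3.1) wrote the deposited files, according to their headers. Their intensity values taken here are the median spot and local background signals on a linear scale, not normalized, per the file headers. The deposited log10 ratio is that of processed red over green, and the authors' series table holds the same log10 ratios within 0.005. Other columns are flags, per the file headers.

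In R 4.3.3 with limma 3.58.1, signals were corrected with normexp (offset 50), which shrinks the ratios of dim genes, and normalized by loess within arrays. Outlier readings (0.372%) and control spots were left out, and no spot was saturated. Replicate spots were averaged. Probes had to be well above background in red on at least 4 of 8 arrays, and the brightest kept probe stood for its gene. Accessions were matched to RefSeq symbols of GRCm38.p6 (27509 of 55681 probes). KO was compared with WT by lmFit and eBayes over 13974 genes with Benjamini-Hochberg adjustment. SE is the moderated standard error. The fit was also run on simulated data with planted changes and independent noise for each gene. That simulation did not model the high background of WT1 and KO1, the sex imbalance or the slide row, so it does not check the calls against these.

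Members and lists were chosen with earlier results of these data known. The rule described each gene that passed and the 2 of each role with the smallest p, in every sample. Same-numbered samples deviated together from their group means (r = 0.14, 0.37, 0.26 and 0.30), so a replicate block was fitted as well. The sample titles name a numbered kidney pair in both groups, which was read here as each sample's own pair of kidneys. Whether equal numbers mark matched samples is not stated, and the numbers also follow the slide column. Equal numbers were not always the closest match: WT4 and KO1 were closest to each other, and KO3 was closest to WT2. With the block 555 genes passed, against 295 without it.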

Additional observations from a re-analysis of the deposited data

Results flagged for a closer look

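Scg5 in KO3 had a log2 ratio of 0.26, apart from the other KO arrays at -0.34 to -0.25. It was the only one of 48 groups of 4 samples in which 1 sample stood this far from the rest, and chance marks about 1 in 20 such groups.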

How the results depend on the processing

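Most of these genes were dim: 15 of the 24 tested had a median red signal under 100 units above the negative controls on the 6 arrays with low controls, and 10 of 34 could not be tested. The 4 calls held without WT1 and KO1, with and without the replicate block, with array weights, with scale normalization between arrays, without the brightness filter, with every probe tested, with the mean of probes, and, in alternatives chosen after seeing the data, without WT1 and KO1 in the red channel alone and in the scanner software's ratios. The block changed no call of the 24 genes other than that of Stmn2. The number of these genes that passed was 2 with the software's ratios, 1 when a probe had to be above background on all 8 arrays (Elavl4, Phox2a and Tph1 were then left out), and 0 with median centring, the red channel alone or a sex term, in which 4, 1 and 7 had an unadjusted p under 0.05. It was 2 to 4 when 1 sample was left out, and the 2 were Elavl4 and Tph1 each time. Over all genes 295 passed, and 123 did with the software's ratios, 0 with median centring (177 unadjusted), 1 with the red channel alone, 12 with a sex term, 452 with array weights, 555 with the replicate block, 533 with the block and without WT1 and KO1, 143 in the red channel and 65 in the software's ratios without WT1 and KO1, and 83 to 344 with 1 sample left out. The median of the tested genes moved from 0.02 to 0.0897 with the software's ratios and to 0.10 in the red channel without WT1 and KO1, and was 0.01 to 0.04 with 1 sample left out. Differences that turned were small or in the red channel: there Ngfr was 0.45, Scg5 0.0766 and Nr5a1 -0.123. Nr5a1 was -0.0131 with median centring and -3.01e-05 to 0.0567 with 1 sample left out, Elavl2 (another probe) was -0.0529 without the brightness filter, and Scg5 was 0.0141 with a sex term and -0.195 to 0.00409 with 1 sample left out. Gata2 was -0.0069 without WT1 and KO1 in both fits, -0.0162 with array weights, -0.0273 to 0.118 with 1 sample left out and -0.0012 in the software's ratios without WT1 and KO1. The cause of these changes was not tested.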
